A study of Homo sapiens with 36 samples.

Results

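The 48 genes described here encode receptor tyrosine kinases that sunitinib is not known for inhibiting. They came from a fixed list of symbols, and each of the 48 symbols was matched to an Ensembl identifier among the 45478 in the count table. RNA sequencing had been carried out on A498 and 786-O, which are established human clear cell renal carcinoma lines, before and after selection in sunitinib. Each line was studied as parental cells and as cells kept in rising sunitinib until they grew to confluence, at 2 µM for A498 and 4 µM for 786-O. All 36 libraries came from cells given an antibody against PD-L1 for 24 h at a labelled dose of 10 mg/mL. The antibody was atezolizumab, avelumab or durvalumab, with 3 libraries for each of the 12 combinations of line, selection and antibody. Untreated cells were not analysed here, so every level below is a level in antibody-treated cells. Whether a group's 3 libraries were grown as independent cultures is not said in the labels, and each p-value therefore measures library-to-library spread, which may be technical.

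A receptor tyrosine kinase is a membrane protein that binds a ligand outside the cell, pairs with a second receptor and phosphorylates tyrosines on its own tail, where adaptor proteins dock and start the RAS-ERK and PI3K cascades. Sunitinib blocks the receptors for VEGF and PDGF together with KIT, FLT3, CSF1R and RET. Receptors outside that set feed the same cascades, and in renal carcinoma MET and AXL are well known for being raised when the VHL protein is lost and hypoxia-inducible factors accumulate. These files hold RNA only, so they say nothing of receptor protein or phosphorylation.

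Sequencing depth ran from 19994882 to 58122896 counts per library, and the correlation of log2 CPM (counts scaled to a common library total) between libraries of a group was 0.992 to 0.996. The renal markers PAX8, PAX2, VIM and the keratins KRT8 and KRT18 were read in all 4 cell states, while CA9 averaged 1.27 CPM in A498 parental cells and at most 0.0198 CPM in the others. Leukocyte markers summed to between 0.209 and 0.977 CPM by state and endothelial markers to between 0.0261 and 0.623 CPM. Each cell state carries a batch label of its own, so selection, line and batch cannot be told apart, whereas the 3 antibodies of a state share a batch. The libraries labelled A498 resistant stood close to 786-O and not to A498. Across 20752 genes their mean log2 CPM correlated with 786-O resistant cells at r = 0.990, with 786-O parental cells at 0.961 and with A498 parental cells at 0.884. HIF1A, which 786-O is known not to make, averaged 294 CPM in A498 parental cells, 8.99 CPM in the libraries labelled A498 resistant, 8.71 CPM in 786-O resistant cells and 9.36 CPM in 786-O parental cells. Over 40 of the receptor genes the same libraries correlated at 0.978 with 786-O resistant and at 0.753 with A498 parental cells. The comparison within A498 rests wholly on these 9 libraries, so no value of it can be given without them, and they are called "labelled A498 resistant" throughout.

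The 4 promoters below are shown because their genes mark the patterns described below: EGFR and AXL were abundant in every state and higher in both sets labelled resistant, EPHB4 was abundant in A498 parental cells alone, and ROR2 was nearly unread in those cells alone. Each is the 250 bases before a RefSeq start on GRCh38.p14, written along the gene's strand, with the GC box GGGCGG or its reverse complement in capitals.
EGFR, chr7:55018767-55019016, plus strand: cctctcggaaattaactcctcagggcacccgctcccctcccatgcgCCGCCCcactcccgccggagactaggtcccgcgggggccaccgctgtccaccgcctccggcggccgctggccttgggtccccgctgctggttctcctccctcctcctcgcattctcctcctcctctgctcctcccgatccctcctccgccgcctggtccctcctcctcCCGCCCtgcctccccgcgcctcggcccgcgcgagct
AXL, chr19:41218973-41219222, plus strand: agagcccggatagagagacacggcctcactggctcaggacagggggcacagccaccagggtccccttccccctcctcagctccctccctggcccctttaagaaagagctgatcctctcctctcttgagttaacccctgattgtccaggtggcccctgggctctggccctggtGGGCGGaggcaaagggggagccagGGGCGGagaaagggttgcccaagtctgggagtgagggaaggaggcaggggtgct
EPHB4, chr7:100827524-100827773, minus strand: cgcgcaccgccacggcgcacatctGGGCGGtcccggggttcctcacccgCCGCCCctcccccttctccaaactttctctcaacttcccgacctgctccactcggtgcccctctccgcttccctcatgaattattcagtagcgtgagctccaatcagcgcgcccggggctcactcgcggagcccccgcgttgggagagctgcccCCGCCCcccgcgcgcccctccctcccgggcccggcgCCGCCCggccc
ROR2, chr9:91950229-91950478, minus strand: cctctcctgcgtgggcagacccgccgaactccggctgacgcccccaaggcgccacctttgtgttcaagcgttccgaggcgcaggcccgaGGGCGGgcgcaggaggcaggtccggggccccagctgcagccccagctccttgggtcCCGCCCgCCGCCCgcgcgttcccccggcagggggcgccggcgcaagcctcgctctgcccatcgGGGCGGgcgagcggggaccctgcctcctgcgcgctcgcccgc
The EGFR and AXL windows hold 2 GC boxes each, and the EPHB4 and ROR2 windows hold 4 each. CpG dinucleotides number 25 in the EGFR window, 4 in that of AXL, 29 in that of EPHB4 and 32 in that of ROR2, against a median of 11 over 35114 RefSeq windows of this length. A RefSeq window was matched for 43 of the 48 genes, and 32 of the 43 hold a GC box, beside 42.6% of all windows. The other motifs were searched on both strands as well. AP-1 (TGANTCA) was found in 2 of the 43 windows against 6.57% of all, the hypoxia response core (ACGTG) in 5 against 18.5%, the TEAD site (GGAATG) in 3 against 11.9% and the TATA box (TATAAA) in 2 against 10.7%. None of the 4 windows shown holds any of these 4 motifs, which says only that the letters are not in those 250 bases.

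Of the 48 genes, 18 averaged at least 5 CPM in every cell state and 26 did so in at least 1 state. The genes of at least 5 CPM numbered 23 in A498 parental cells, 20 in 786-O parental cells, 22 in 786-O resistant cells and 21 in the libraries labelled A498 resistant. Another 14 averaged under 1 CPM in every state. These were ERBB3 and ERBB4, the insulin receptor relative INSRR, the neurotrophin receptor NTRK2, ALK and LTK, ROS1, the synaptic kinase MUSK, TIE1 of endothelium, and the ephrin receptors EPHA3, EPHA5, EPHA8, EPHA10 and EPHB3. In bulk RNA, fewer cells with a transcript and less of it per cell cannot be told apart.

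Per kilobase of exon, which is the scale on which different genes can be compared, the same 4 genes led in every state. They were MET, the receptor of hepatocyte growth factor, AXL, the receptor of GAS6, EPHA2, a receptor of ephrin-A ligands, and EGFR, the receptor of epidermal growth factor. In A498 parental cells the order was MET (97.8 ± 2.38 CPM per kb, SD, n = 9), EPHA2 (50.5 ± 2.89), AXL (40.4 ± 1.62) and EGFR (29.2 ± 1.94). 786-O parental cells had MET first (102 ± 2.71), then AXL (95.8 ± 1.48), EPHA2 (87.6 ± 3.16) and EGFR (21.6 ± 1.38). AXL led in 786-O resistant cells (163 ± 4.30), followed by EPHA2 (115 ± 6.2), MET (73.7 ± 2.87) and EGFR (55.2 ± 4.05). The same order was read in the libraries labelled A498 resistant, with AXL at 147 ± 3.96, EPHA2 at 82.5 ± 3.10, MET at 63.5 ± 1.62 and EGFR at 46.7 ± 2.06. Neighbours in each of these orders differed by more than their SDs. Below them, EPHB4 in A498 parental cells (19.6 ± 0.441) and FGFR1 in the same cells (19.0 ± 0.659) were within their SDs of each other. Summed over the 48 genes, the raw level was 2777 ± 30.5 CPM in A498 parental cells, 2553 ± 40.1 in 786-O parental cells, 3474 ± 97.0 in 786-O resistant cells and 3053 ± 33.7 in the libraries labelled A498 resistant.

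**Figure D1:**
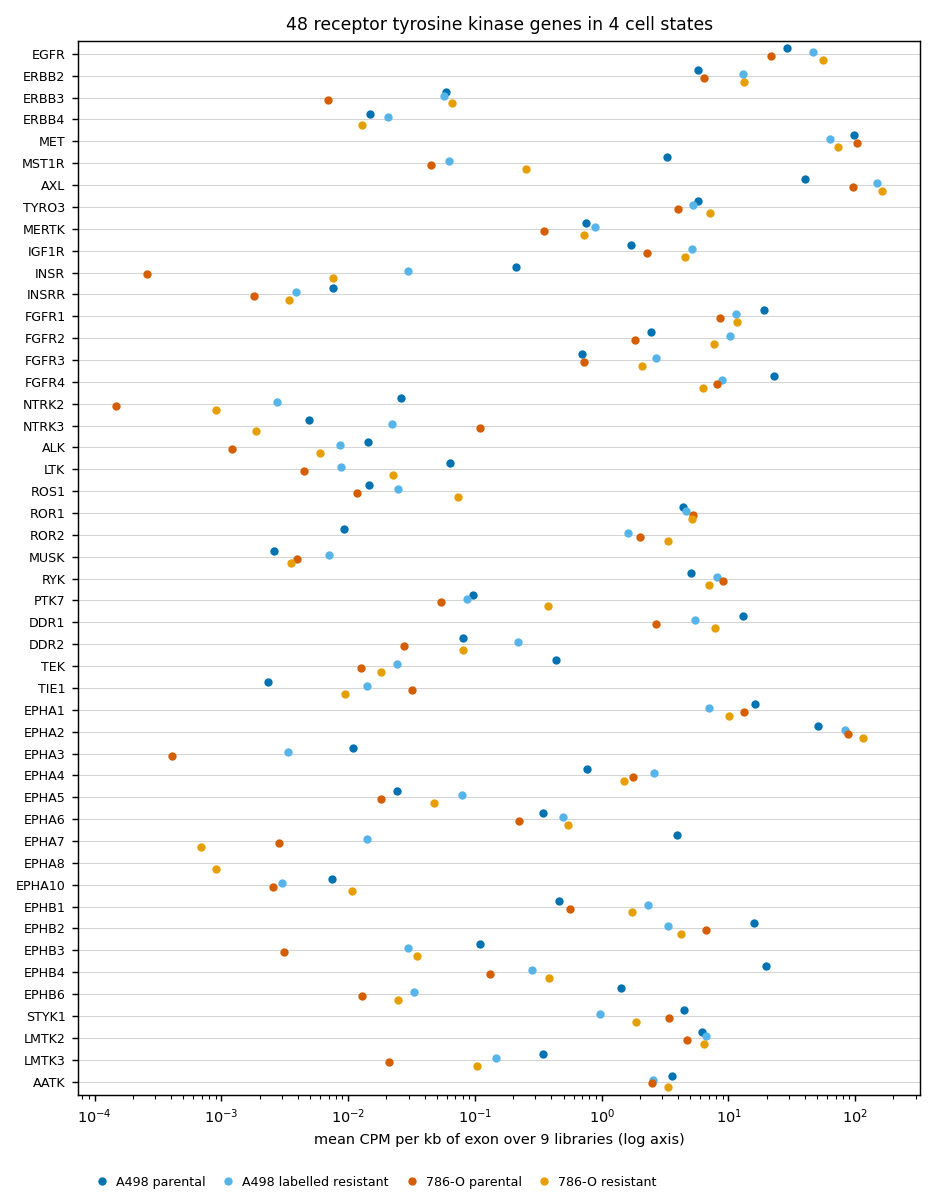
Mean level of each of the 48 genes (rows) in the 4 cell states (colours), in CPM per kb of exon on a log axis, n = 9 libraries a point; a state with 0 counts has no point. MET, AXL, EPHA2 and EGFR lie at the right in all 4 states, while EPHA7, EPHB4, EPHB6, MST1R and INSR have A498 parental cells far to the right of the other 3.

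In 786-O, sunitinib-selected cells were compared with parental cells over the 3 antibodies, 9 libraries against 9. Enough reads for the test were present for 34 of the 48 genes, and every one of the 34 was called at an edgeR adjusted p under 0.05, with 24 higher and 10 lower in resistant cells. The background was as dense: of 19369 genes tested, 83.8% were called, 43.6% higher and 40.2% lower, so being called sets no receptor apart. The median log2 change was 0.79 over the 34 genes and 0.03 over all genes tested. At 2-fold or more 14 were higher and 2 lower, where 14.5% and 5.67% of all genes were. ERBB3, ROS1 and LMTK3 passed the read filter only through resistant cells (at most 0.138, 0.172 and 0.228 CPM in parental libraries). NTRK3 and TIE1, the 2 lower ones, passed only through parental cells (at most 0.115 and 0.125 CPM in resistant libraries). Their direction was set by the filter, yet they count in the median and the 2-fold counts. The same holds below for any gene read in only 1 of the states compared, so no shift of the receptors as a set is drawn from these values. Of the 34, 33 were called in the same direction under each antibody on its own, and the exception was ROR1. Taken singly by antibody, all genes gave 36.6% higher and 35.3% lower with atezolizumab, 37.6% and 35.6% with avelumab and 36.7% and 34.6% with durvalumab. The share of all genes called the same way under all 3 antibodies was not computed, so 33 of 34 has no background beside it. With raw library totals in place of TMM scaling the median of all genes moved from 0.03 to 0.14.

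Within A498 as labelled, 38 genes were tested, of which 15 were higher in the libraries labelled resistant, 18 were lower and 5 were not called (ERBB3, MERTK, ROR1, PTK7 and LMTK2). With raw library totals MERTK (log2 0.24, edgeR adjusted p = 0.00568), ROR1 (0.10, 0.00288) and LMTK2 (0.11, 0.000438) were called higher. PTK7 was called lower without atezolizumab replicate 3 (edgeR adjusted p = 0.0488) or durvalumab replicate 3 (0.0212) of the libraries labelled A498 resistant. MERTK was called higher without atezolizumab replicate 1 (edgeR adjusted p = 0.0408) or 2 (0.0463) or durvalumab replicate 3 (0.0135) of those libraries. It was also called without atezolizumab replicate 3 (edgeR adjusted p = 0.0190), avelumab replicate 1 (0.0398) or durvalumab replicate 2 (0.0466) of A498 parental cells. Of 19458 genes tested there, 88.2% were called, 44.2% higher and 44.0% lower. The median log2 difference was -0.21 over the 38 genes against 0.01 over all. At 2-fold or more 11 were higher and 14 lower, where 15% and 16.8% of all genes were. The selected-minus-parental difference itself differed between the lines as labelled (an interaction over all 36 libraries) for 35 of 40 genes tested, 24 with the higher value in 786-O and 11 with the lower. At 2-fold or more the counts were 15 and 5, beside 20.3% and 13.7% of all genes. The background without that limit was 80.4% called, 39.8% higher and 40.6% lower, and the 5 genes not called were FGFR2, DDR2, EPHA5, NTRK2 and EPHA7. For NTRK2 and EPHA7 the fit gave no usable estimate, with an SE of 10394 and 8709 on the log2 scale.

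Between the parental lines, 37 genes were tested, 25 were higher in A498, 11 were lower and FGFR3 was not called. All genes gave 87.2% called of 19703, 44.3% higher and 42.9% lower, and a median of 0.01 against 0.50 for the 37 genes. At 2-fold or more 16 were higher in A498 and 4 lower, beside 20.9% and 10.7% of all genes. The 2 sets labelled resistant were nearer to each other, with 13 of 35 tested genes higher and 19 lower in the libraries labelled A498 resistant (69% of 19196 genes called, 33.8% higher and 35.2% lower). At 2-fold or more 3 were higher and 4 lower, larger shares of the 35 than the 3.00% and 2.28% of all genes, though the genes are few. The comparisons share parental or resistant libraries with one another, so their values are given side by side and no overlap is drawn from them.

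**Figure D2:**
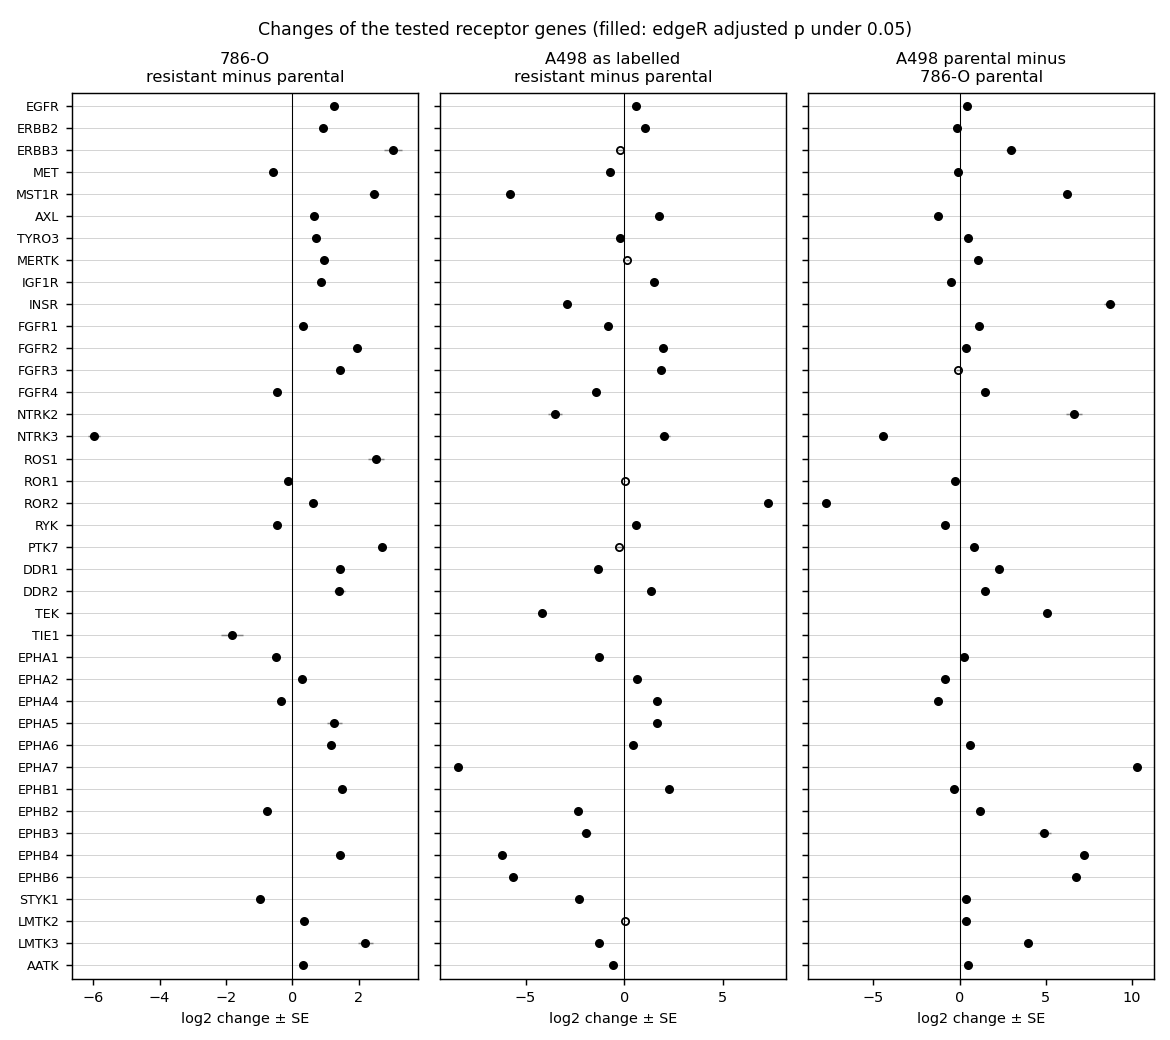
Log2 change ± SE (x axes, each with its own range) of the receptor genes tested (rows) for selected against parental 786-O, the same within A498 as labelled, and A498 against 786-O parental cells; filled points have an edgeR adjusted p under 0.05. All points of the 786-O panel are filled, 24 right of 0 and 10 left of it. INSR and NTRK2 in the right panel rest on 1 count each in 786-O parental cells.

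The ERBB receptors bind EGF-like ligands, except ERBB2, which has no ligand of its own and pairs with the others. EGFR ranged from 245 to 308 CPM (median 267) over the 9 parental 786-O libraries and from 606 to 764 CPM (median 706) over the 9 resistant ones. It was 2.37-fold higher after selection in 786-O, with no overlap between the sets (log2 1.25, SE 0.039, edgeR adjusted p = 2.73e-17). A498 parental cells held 326 to 395 CPM (median 370) of EGFR and the libraries labelled A498 resistant 545 to 636 CPM (median 579), also without overlap. There the difference was 1.51-fold (log2 0.59, SE 0.0334, edgeR adjusted p = 2.05e-13), smaller than in 786-O by 0.64 on the log2 scale (SE 0.0548, edgeR adjusted p = 6.40e-12).

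ERBB2 lay in narrow bands, 63.2 to 67.3 CPM (median 66.2) in parental and 129 to 140 CPM (median 135) in resistant 786-O. In A498 it was 56.2 to 64.0 CPM (median 59.9) in parental cells and 130 to 137 CPM (median 134) in the libraries labelled resistant. No resistant library of either label came near a parental one. The rise was 1.91-fold in 786-O (log2 0.93, SE 0.0217, edgeR adjusted p = 1.94e-27) and the difference 2.11-fold within A498 as labelled (log2 1.08, SE 0.0237, edgeR adjusted p = 5.72e-38). ERBB2 shares 7.41% of its exonic length with MIEN1 and PGAP3 on the opposite strand, the largest such share among the 48 genes. ERBB3, which has little kinase activity and signals through its partners, averaged 0.0629 CPM in 786-O parental and 0.591 CPM in 786-O resistant cells (log2 3.03, SE 0.283, edgeR adjusted p = 1.80e-11), and 0.532 and 0.516 CPM in the A498 pair. For ERBB4, 0 counts were read over the 9 786-O parental libraries and 63 over the 9 resistant ones, at least 19.7-fold higher against a floor of 3 counts over the state.

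AXL, TYRO3 and MERTK form the TAM family, whose ligands are GAS6 and protein S. AXL was read at 479 to 506 CPM (median 493) in 786-O parental and at 800 to 863 CPM (median 843) in 786-O resistant libraries. The A498 pair was wider apart, at 193 to 220 CPM (median 208) in parental cells and 727 to 784 CPM (median 761) in the libraries labelled resistant. None of these 4 ranges touches another. The fold was 1.58 in 786-O (log2 0.66, SE 0.0221, edgeR adjusted p = 4.51e-23) and 3.44 within A498 as labelled (log2 1.78, SE 0.0228, edgeR adjusted p = 8.81e-48), an interaction of -1.14 (SE 0.031, edgeR adjusted p = 1.52e-37). Between the parental lines AXL was 2.42-fold lower in A498. TYRO3 was 1.64-fold higher after selection in 786-O (43.9 ± 1.47 to 77.8 ± 3.33 CPM, edgeR adjusted p = 6.48e-22) and 1.16-fold lower in the libraries labelled A498 resistant (63.3 ± 1.94 against 57.9 ± 1.75 CPM, edgeR adjusted p = 1.24e-10). MERTK, the family's clearance receptor on phagocytes, averaged 1.65 CPM in parental and 3.41 CPM in resistant 786-O cells (1.93-fold, edgeR adjusted p = 5.00e-13).

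MET and MST1R, the receptors of hepatocyte growth factor and of macrophage-stimulating protein, are close relatives and moved differently. MET fell 1.5-fold in 786-O, from 690 to 751 CPM (median 723) in parental to 494 to 558 CPM (median 516) in resistant libraries (log2 -0.58, SE 0.0228, edgeR adjusted p = 2.76e-21). In A498 as labelled it was 1.64-fold lower, with 665 to 718 CPM (median 687) against 428 to 465 CPM (median 452). MST1R was at 15.6 to 19.1 CPM (median 17) in A498 parental cells and at 0.157 to 0.5 CPM (median 0.338) in the libraries labelled A498 resistant. Its 786-O range ran from 0.0511 to 0.435 CPM (median 0.228) in parental and from 0.896 to 1.87 CPM (median 1.35) in resistant cells. MST1R was thus 5.49-fold higher after selection in 786-O (log2 2.46, SE 0.160, edgeR adjusted p = 2.32e-15) and 55-fold lower in the libraries labelled A498 resistant (log2 -5.78, SE 0.0945, edgeR adjusted p = 2.22e-43). Between the parental lines it was 75.4-fold higher in A498, and 6.78% of its exonic length overlaps other genes.

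The insulin-like receptors take up insulin and its growth factor relatives and signal mainly through IRS proteins to PI3K. IGF1R ranged from 30.1 to 38.7 CPM (median 31.1) in parental and from 53.9 to 74.0 CPM (median 62.0) in resistant 786-O. In A498 parental cells it was 20.5 to 25.5 CPM (median 24.6), below the 66.8 to 78.3 CPM (median 72.8) of the libraries labelled resistant. Both pairs of ranges are separate. The rise was 1.83-fold in 786-O (log2 0.87, SE 0.051, edgeR adjusted p = 1.12e-11), and the difference within A498 as labelled was 2.89-fold (log2 1.53, SE 0.0378, edgeR adjusted p = 3.10e-24). INSR, the insulin receptor itself, was low throughout, with 2.22 ± 0.483 CPM in A498 parental cells, 0.310 ± 0.0923 in the libraries labelled A498 resistant, and 30 counts in resistant against 1 count in parental 786-O over 9 libraries each (ratio 28.2, 95% exact interval 4.68 to 1150, counting error only).

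Fibroblast growth factor receptors share FRS2 as their main docking protein and bind overlapping sets of ligands, and the 4 genes split by member. FGFR2 was at 12.4 to 16.0 CPM (median 13.9) in parental and 53.1 to 61.4 CPM (median 57.9) in resistant 786-O libraries. In the A498 pair it was 16.9 to 20.2 CPM (median 18.2) against 73.0 to 83.0 CPM (median 75.3). The sets were separate in each pair as labelled and the folds were near each other, 3.87 in 786-O (log2 1.95, SE 0.0359, edgeR adjusted p = 3.48e-30) and 3.96 within A498 as labelled (log2 1.99, SE 0.0316, edgeR adjusted p = 1.28e-43). The second pair rests on libraries that stood close to 786-O, so the folds cannot be read as the same response in separate lines. Its interaction was not called (-0.05, SE 0.0501, edgeR adjusted p = 0.391).

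FGFR3, at a lower level, had 2.58 to 4.66 CPM (median 3.39) in parental and 9.43 to 11.2 CPM (median 10.1) in resistant 786-O. The A498 parental range was 2.11 to 4.64 CPM (median 3.21) and the range labelled A498 resistant 11.5 to 14.8 CPM (median 12.9). It was 2.72-fold higher after selection in 786-O (log2 1.44, SE 0.0655, edgeR adjusted p = 2.48e-19) and 3.68-fold higher in the libraries labelled A498 resistant (log2 1.88, SE 0.0675, edgeR adjusted p = 9.90e-26). The parental lines overlapped for this gene, and the difference between them was -0.10 on the log2 scale (SE 0.105, edgeR adjusted p = 0.396).

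FGFR1 went opposite ways, from 116 to 123 CPM (median 119) up to 153 to 167 CPM (median 162) in 786-O, and 248 to 276 CPM (median 263) in A498 parental against 154 to 167 CPM (median 157) in the libraries labelled A498 resistant. It was 1.25-fold higher in the first (log2 0.33, SE 0.021, edgeR adjusted p = 1.61e-15) and 1.76-fold lower in the second (log2 -0.82, SE 0.0228, edgeR adjusted p = 1.14e-33). FGFR4, the member most tied to endocrine FGF19 in liver, was lower in both. Parental 786-O held 33.3 to 46.2 CPM (median 39.8) and resistant 786-O 28.1 to 33.5 CPM (median 30.7), ranges that overlap by a little, with a fold of 1.37 (log2 -0.46, SE 0.0337, edgeR adjusted p = 5.14e-14). A498 parental cells held 104 to 121 CPM (median 112) and the libraries labelled A498 resistant 39.3 to 45.1 CPM (median 43.3), a 2.74-fold difference (log2 -1.46, SE 0.0263, edgeR adjusted p = 1.42e-41).

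**Figure D3:**
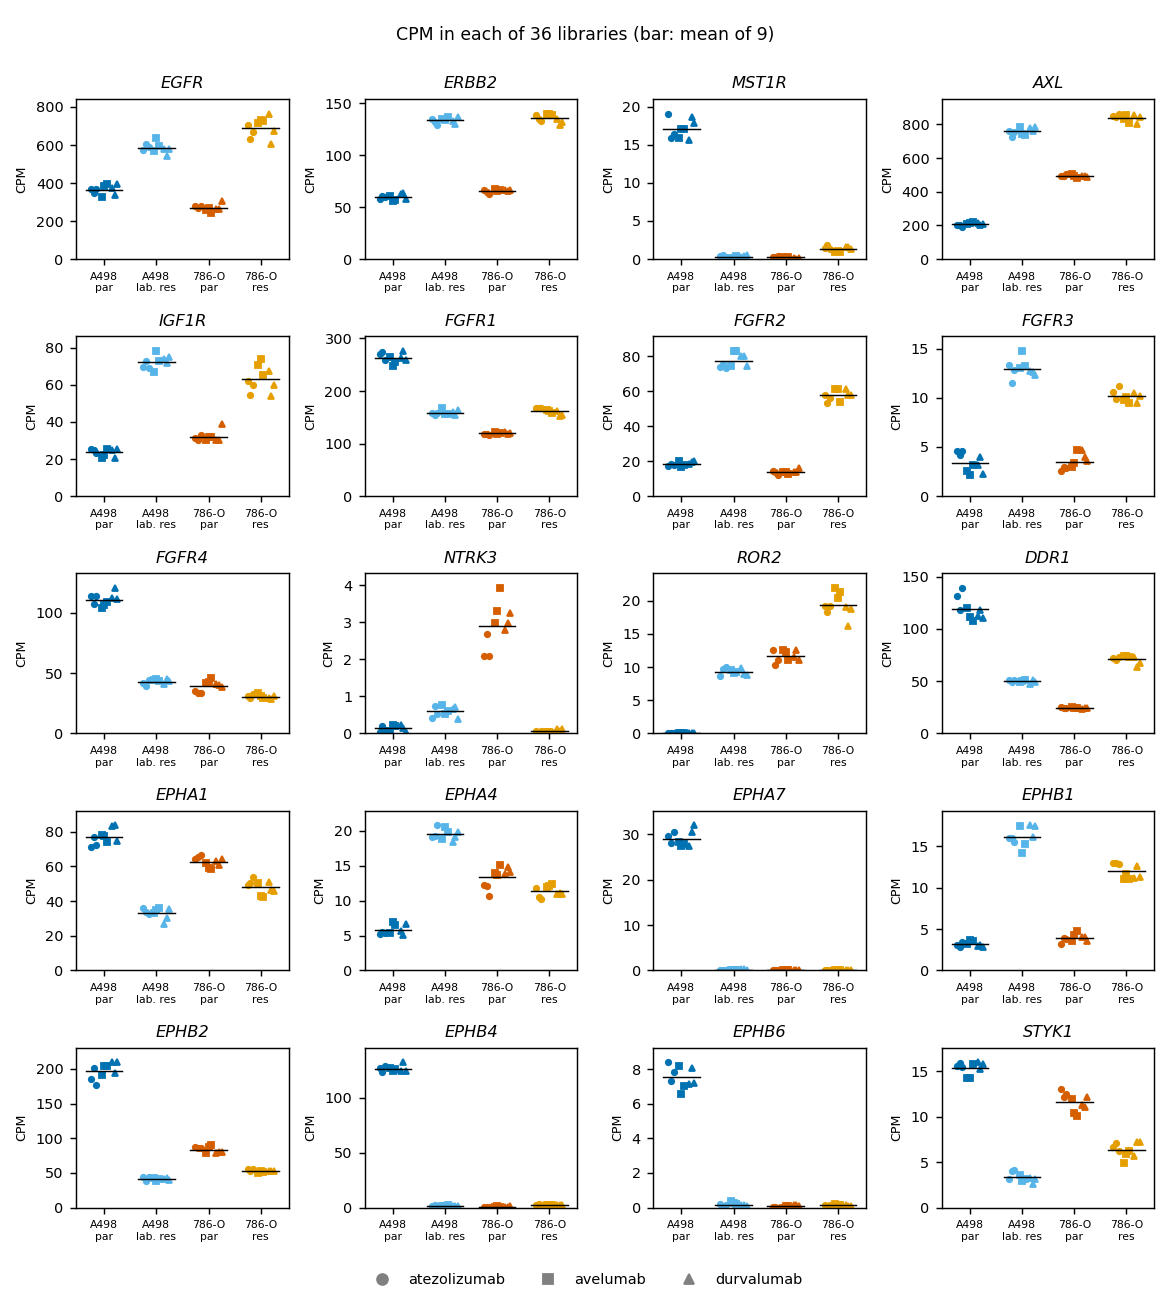
CPM in each of the 36 libraries (points, shaped by antibody) with the mean of 9 as a bar, for the 20 genes described in full; each panel has its own y axis from 0. ERBB2 and FGFR2 show both labelled resistant sets above both parental sets, while MST1R, EPHA7, EPHB4 and EPHB6 are high only in the A498 parental libraries.

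Among the receptors of matrix and Wnt-type ligands, DDR1, which binds collagen, showed opposite differences. It was at 23.3 to 25.1 CPM (median 24.2) in parental and 63.5 to 74.2 CPM (median 72.5) in resistant 786-O. A498 parental cells had 108 to 139 CPM (median 118) and the libraries labelled A498 resistant 47.3 to 51.1 CPM (median 49.8). No pair of these ranges overlaps. DDR1 was therefore 2.72-fold higher after selection in 786-O (log2 1.44, SE 0.0285, edgeR adjusted p = 2.40e-29) and 2.52-fold lower in the libraries labelled A498 resistant (log2 -1.34, SE 0.0287, edgeR adjusted p = 8.81e-35). The interaction was 2.76 (SE 0.0413, edgeR adjusted p = 4.22e-50). DDR2, its relative for fibrillar collagen in mesenchymal cells, stayed at or below 2.34 CPM on average and was 2.67-fold higher after selection in 786-O and 2.54-fold higher in the libraries labelled A498 resistant. COL1A1, which encodes a chain of the collagen these receptors bind, averaged 55.7 CPM in A498 parental cells and between 1.92 and 4.70 CPM in the other 3 states. The 4 fibroblast markers together summed to 60.4 to 71.1 CPM in A498 parental libraries and to 26.8 to 30.4 CPM in the libraries labelled A498 resistant. Those markers summed in 786-O to 9.88 to 12.6 CPM in parental and 22.2 to 25.9 CPM in resistant libraries, without overlap. That summed level moved with DDR1 in 786-O and within A498 as labelled, but its markers did not move alike. On the log2 scale the interaction was 4.26 for COL1A1 and 1.96 for ACTA2 but -9.30 for LUM, and DCN was too low to test. The part of these markers in the DDR1 result was not tested.

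ROR2 carries WNT5A signals outside the beta-catenin route. It was nearly unread in A498 parental cells, at 0 to 0.106 CPM (median 0.0492), and ran from 8.60 to 10.0 CPM (median 9.30) in the libraries labelled A498 resistant. 786-O held 10.3 to 12.6 CPM (median 11.6) in parental and 16.2 to 21.9 CPM (median 19.3) in resistant cells. The rise in 786-O was 1.54-fold (log2 0.62, SE 0.0427, edgeR adjusted p = 1.04e-14), whereas the fitted difference within A498 as labelled was 155-fold (log2 7.28, SE 0.143, edgeR adjusted p = 5.72e-40) and that between the parental lines 214-fold in favour of 786-O. ROR1, its partner, kept to 29.1 to 35 CPM by state mean. It fell by 0.12 on the log2 scale in 786-O (edgeR adjusted p = 0.00219), a call that was lost with raw library totals (log2 -0.01, edgeR adjusted p = 0.807). RYK, another Wnt receptor, fell 1.38-fold in 786-O (72.5 ± 2.20 to 56.5 ± 3.07 CPM, edgeR adjusted p = 3.93e-17) and was 1.52-fold higher in the libraries labelled A498 resistant. PTK7, a pseudokinase of planar polarity, rose 6.46-fold in 786-O, from 0.485 ± 0.0814 to 3.41 ± 0.303 CPM (edgeR adjusted p = 2.06e-21).

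NTRK3 is the neurotrophin-3 receptor. It was at 2.08 to 3.93 CPM (median 2.98) in 786-O parental libraries and at 0 to 0.115 CPM (median 0.049) in resistant ones. A498 parental cells had 0.0326 to 0.228 CPM (median 0.130), below the 0.386 to 0.756 CPM (median 0.591) of the libraries labelled A498 resistant. It fell 63.4-fold in 786-O (log2 -5.99, SE 0.184, edgeR adjusted p = 4.42e-24), the widest change of the 34 genes tested there, and was 4.10-fold higher within A498 as labelled (log2 2.03, SE 0.274, edgeR adjusted p = 4.15e-09). All of these levels are low. Of the 35 receptor genes tested between the 2 sets labelled resistant, NTRK3 had the largest difference, 11.8-fold higher in the libraries labelled A498 resistant (log2 3.56, SE 0.302, edgeR adjusted p = 3.03e-12). ROS1 and TIE1 were tested in 786-O at means under 1 CPM and were 5.69-fold higher and 3.52-fold lower after selection. The angiopoietin receptor TEK averaged 2.1 CPM in A498 parental cells and at most 0.117 CPM elsewhere.

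Ephrin receptors bind membrane-bound ephrins on neighbouring cells, the EPHA members mainly ephrin-A and the EPHB members mainly ephrin-B. Of the 9 EPHA genes, 5 were tested in 786-O, with 3 higher and 2 lower after selection. EPHA2 rose 1.22-fold, from 364 ± 13.2 to 478 ± 25.8 CPM (edgeR adjusted p = 3.41e-13), and was 1.54-fold higher in the libraries labelled A498 resistant (343 ± 12.9 against 210 ± 12 CPM). EPHA1, an epithelial member, ran from 58.7 to 66.4 CPM (median 63.1) in parental and from 42.2 to 54.0 CPM (median 49.1) in resistant 786-O, and from 71.0 to 83.8 CPM (median 77.1) in A498 parental against 26.5 to 35.8 CPM (median 33.8) in the libraries labelled resistant. It was lower in both, without overlap, by 1.41-fold (log2 -0.49, SE 0.0321, edgeR adjusted p = 2.78e-15) and 2.47-fold (log2 -1.30, SE 0.0397, edgeR adjusted p = 5.78e-19).

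EPHA4, which binds both ephrin classes, spanned 10.7 to 15.1 CPM (median 13.8) in parental and 10.2 to 12.4 CPM (median 11.1) in resistant 786-O, so the sets overlapped. A498 parental cells held 5.12 to 6.95 CPM (median 5.54) and the libraries labelled A498 resistant 18.5 to 20.8 CPM (median 19.2), far apart. The changes were 1.27-fold lower in 786-O (log2 -0.35, SE 0.0407, edgeR adjusted p = 2.93e-09) and 3.19-fold higher within A498 as labelled (log2 1.67, SE 0.048, edgeR adjusted p = 3.44e-33). EPHA7, best known from the developing nervous system, was at 27.4 to 32.0 CPM (median 28.4) in A498 parental cells. The libraries labelled A498 resistant held 0 to 0.211 CPM (median 0.0889), and 786-O held 7 counts over the 9 parental and 2 over the 9 resistant libraries. It was 350-fold lower in the libraries labelled A498 resistant than in A498 parental cells (log2 -8.45, SE 0.0983, edgeR adjusted p = 1.57e-49). EPHA6, at state means of 1.41 to 3.41 CPM, was 2.26-fold higher after selection in 786-O.

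Libraries of the parental lines were separate for EPHB2, EPHB4 and EPHB6, and for EPHB3 at levels under 1 CPM, but they overlapped for EPHB1. EPHB4, the ephrin-B2 receptor of veins, was at 124 to 132 CPM (median 126) in A498 parental cells and at 1.67 to 2.20 CPM (median 1.73) in the libraries labelled A498 resistant. Far lower than A498 parental cells, 786-O held 0.509 to 1.34 CPM (median 0.769) in parental and 2.03 to 3.09 CPM (median 2.37) in resistant cells. The A498 parental libraries were thus 146-fold above 786-O parental ones (log2 7.19, SE 0.0493, edgeR adjusted p = 1.26e-47). EPHB4 was 74.2-fold lower in the libraries labelled A498 resistant (log2 -6.21, SE 0.0396, edgeR adjusted p = 3.94e-60) and 2.71-fold higher after selection in 786-O (log2 1.44, SE 0.119, edgeR adjusted p = 1.15e-12). EPHB6, a member without kinase activity, had the same shape with 6.55 to 8.41 CPM (median 7.35) in A498 parental cells and at most 0.400 CPM in any other library. It was 109-fold higher in A498 than in 786-O parental cells (log2 6.77, SE 0.142, edgeR adjusted p = 8.37e-36) and was too low for the test within 786-O.

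EPHB2, which guides cells along ephrin-B borders, was read well in all 4 states. It was at 78.0 to 90.2 CPM (median 85.3) in parental and 50.5 to 56.4 CPM (median 52.6) in resistant 786-O, and at 177 to 210 CPM (median 201) in A498 parental against 38.3 to 44.5 CPM (median 41.5) in the libraries labelled resistant. It fell 1.70-fold in 786-O (log2 -0.77, SE 0.0261, edgeR adjusted p = 7.17e-23) and was 5.05-fold lower within A498 as labelled (log2 -2.34, SE 0.0337, edgeR adjusted p = 1.24e-28). EPHB1 did the opposite, at 3.24 to 4.81 CPM (median 3.87) in parental and 11 to 13.1 CPM (median 11.6) in resistant 786-O. Its A498 ranges were 2.84 to 3.73 CPM (median 3.10) for parental cells and 14.3 to 17.6 CPM (median 16.1) for the libraries labelled resistant. It was 2.84-fold higher after selection in 786-O (log2 1.5, SE 0.0539, edgeR adjusted p = 2.66e-22) and 4.76-fold higher in the libraries labelled A498 resistant (log2 2.25, SE 0.0542, edgeR adjusted p = 2.52e-36).

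The last group holds STYK1 and the lemur kinases LMTK2, LMTK3 and AATK, membrane kinases without known ligands. STYK1 was at 10.0 to 13.0 CPM (median 12) in parental and 4.95 to 7.2 CPM (median 6.19) in resistant 786-O, and at 14.2 to 16.0 CPM (median 15.6) in A498 parental against 2.62 to 4.17 CPM (median 3.14) in the libraries labelled resistant. The sets were separate in each pair. It fell 1.98-fold in 786-O (log2 -0.98, SE 0.0533, edgeR adjusted p = 1.84e-17) and was 4.93-fold lower within A498 as labelled (log2 -2.30, SE 0.0549, edgeR adjusted p = 1.65e-36). LMTK2 and AATK rose 1.26-fold and 1.24-fold in 786-O, from 42.8 to 58.3 CPM and from 15.5 to 20.9 CPM by state mean. LMTK3, at 0.120 CPM in parental 786-O, rose 4.59-fold.

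The ligands bear on whether a receptor can be engaged by the cells' own products, and 55 were listed. In 786-O, 28 were tested, of which 17 were higher after selection and 10 lower, with a median log2 change of 0.40 against 0.03 over all genes. Of all genes tested 83.8% were called, 43.6% higher and 40.2% lower, so being called sets no ligand apart. For EGFR, the most abundant ligand was TGFA, which fell 1.80-fold in 786-O (441 to 264 CPM by state mean, edgeR adjusted p = 5.35e-24) and was 1.59-fold lower within A498 as labelled (387 against 258 CPM). EREG, a low-affinity ligand of EGFR, averaged 220 CPM in parental and 21.2 CPM in resistant 786-O, an 11.2-fold drop (edgeR adjusted p = 4.07e-29), and 0.518 CPM in A498 parental against 51.9 CPM in the libraries labelled A498 resistant. AREG fell 3.77-fold in 786-O, from 8.44 to 2.41 CPM, and HBEGF 1.24-fold, from 25.9 to 22.7 CPM. BTC rose 5.45-fold, from 0.862 to 5.09 CPM, and EGF 1.51-fold, from 2.04 to 3.32 CPM. So in 786-O the receptor was higher while 4 of the 6 tested EGFR ligands were lower and 2 higher. NRG2, a ligand of ERBB3 and ERBB4, rose 4.03-fold, from 1.01 to 4.36 CPM, and NRG1 fell 1.49-fold, from 58.9 to 42.6 CPM.

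GAS6, the AXL ligand, was read with its receptor in every state. It rose 1.39-fold in 786-O (122 to 183 CPM, edgeR adjusted p = 5.29e-17) and was 1.54-fold higher in the libraries labelled A498 resistant (85.6 against 139 CPM). PROS1, protein S, rose 3.71-fold (16.4 to 65.8 CPM, edgeR adjusted p = 4.77e-31) and was 2.81-fold higher within A498 as labelled. HGF, the ligand of MET, had no more than 2 counts over any 9 libraries, and IGF1 no more than 1, while IGF2 had 18 counts over the 786-O resistant libraries and 0 elsewhere. IGF1 and IGF2 share 82.4% and 75% of their exonic length with other genes, and how reads in shared exons were counted is not known here, so their near-zero counts are uncertain. MST1, the ligand of MST1R, averaged between 1.24 and 2.28 CPM by state. NTF3, the ligand of NTRK3, reached 4 counts at most over a state.

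FGF2 was the leading fibroblast growth factor, at 70.0 CPM in parental and 57.1 CPM in resistant 786-O (1.32-fold lower, edgeR adjusted p = 2.49e-13) and at 164 CPM in A498 parental against 83.8 CPM in the libraries labelled A498 resistant. FGF5 fell 2.22-fold in 786-O, from 12.7 to 6.14 CPM. FGF2 shares 11.9% of its exonic length with NUDT6 on the opposite strand. WNT5A, which ROR2 binds, fell 1.77-fold in 786-O (5.83 to 3.57 CPM, edgeR adjusted p = 1.24e-07), where ROR2 itself was higher. Of the ephrins, EFNB1 averaged 79.4 CPM in A498 parental cells and between 6.47 and 8.75 CPM in the other states. EFNB2, which EPHB4 binds, stayed between 19.0 and 29.4 CPM, with 26.2% of its exonic length shared with a gene on the opposite strand. EFNA1 averaged 1.21 CPM in A498 parental cells, 11.6 CPM in the libraries labelled A498 resistant, 12 CPM in parental and 23.0 CPM in resistant 786-O, rising 1.78-fold in the last pair (edgeR adjusted p = 1.38e-18). EFNA5 fell 1.65-fold in 786-O, from 32.9 to 21.4 CPM.

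**Figure D4:**
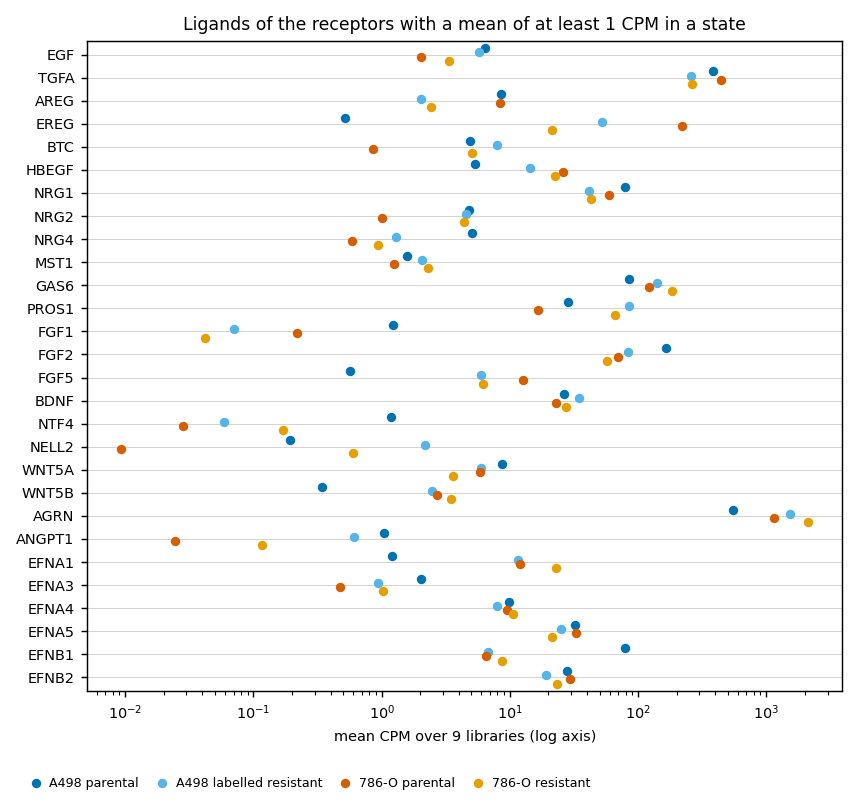
Mean CPM (log axis, n = 9 libraries a point) of the receptor ligands with at least 1 CPM in a state, coloured by cell state. EREG spans 0.518 CPM in A498 parental to 220 CPM in 786-O parental cells, whereas TGFA, GAS6 and EFNB2 stay within a narrow band.

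Downstream, where the same shares of all genes apply, 24 of 26 adaptors were tested in 786-O, with 10 higher and 11 lower and a median log2 change of -0.01. PLCG2, a phospholipase best known in blood cells, rose 24.8-fold from 0.228 to 6.28 CPM (edgeR adjusted p = 1.76e-27). GRB14, which restrains insulin-type receptors, fell 2.47-fold from 8.86 to 3.88 CPM (edgeR adjusted p = 7.86e-20). GRB10, its relative, rose 1.75-fold to 140 CPM, and GAB1, the docking protein used by MET, rose 1.51-fold to 6.29 CPM. FRS2, which serves the FGF receptors, fell 1.28-fold to 15.5 CPM. Genes whose products restrain receptors numbered 19 tested of 21, with 6 higher and 11 lower and a median of -0.22. SPRED1, an inhibitor of RAS signalling, fell 1.74-fold from 24.0 to 14.9 CPM. ERRFI1, a direct inhibitor of EGFR, fell 1.63-fold in 786-O from 277 to 183 CPM (edgeR adjusted p = 1.55e-14) and was 2.03-fold higher in the libraries labelled A498 resistant (88.0 against 190 CPM). SPRED3 fell 1.59-fold to 1.31 CPM, and PTPRF, a receptor phosphatase, rose 1.57-fold to 787 CPM. Of 8 genes for shedding of ligands and receptors, 5 were higher, 2 lower and 1 not called, with a median of 0.26. RHBDF1, which regulates the sheddase ADAM17, rose 3.44-fold from 29.9 to 111 CPM (edgeR adjusted p = 4.20e-33). ADAM9 rose 1.59-fold to 414 CPM and ADAM15 rose to 323 CPM from 231 CPM, while ADAM12 fell from 62.7 to 50.9 CPM.

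Transcripts that ERK activity is known to raise were listed as well, but their RNA levels do not measure ERK activity, which was not tested. All 8 were tested in 786-O, where 2 were higher after selection, 5 lower and 1 not called, with a median log2 change of -0.44. The share called is near the 83.8% of all genes (43.6% higher, 40.2% lower). DUSP6, an ERK phosphatase, fell 2.35-fold from 6.98 to 3.19 CPM (edgeR adjusted p = 7.47e-18). PHLDA1 fell 2.30-fold from 152 to 71.2 CPM, and the transcription factor ETV4 fell 2.27-fold from 3.41 to 1.62 CPM. DUSP4, another phosphatase of the group, went the other way, 2.9-fold higher at 9.22 CPM (edgeR adjusted p = 1.38e-20). DUSP6 and PHLDA1 share 40.5% and 16.5% of their exonic length with genes on the opposite strand, and the strand setting of the counts is unknown. Within A498 as labelled 3 of the 8 were higher and 5 lower, beside 88.2% of all genes called, with a median of -0.97 and ETV4 27.3-fold lower (18.9 against 0.743 CPM).

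The antibodies were compared inside each cell state, 3 libraries each, with an edgeR test over the 3 antibodies. In A498 parental cells 2 of 35 receptor genes were called, in 786-O parental cells 3 of 29, and in both sets labelled resistant none. The background was 3.83% of all genes in A498 parental cells and 3.52% in 786-O parental cells, so the 2 genes in A498 are near the share of all genes, and the 3 genes in 786-O, though above it, are few. Pairwise, avelumab against atezolizumab gave 3.39% of all genes called in A498 parental and 4.34% in 786-O parental cells, and durvalumab against atezolizumab 2.80% and 1.82%. In the libraries labelled A498 resistant edgeR called 0 of 31 (2 at an unadjusted p under 0.05, 0 by DESeq2), with 0.0114% of all genes called and a lowest edgeR adjusted p of 0.730, for FGFR2. In 786-O resistant cells edgeR called 0 of 32 (9 at an unadjusted p under 0.05, 1 by DESeq2), with 0.741% of all genes called and a lowest edgeR adjusted p of 0.0922, for EPHA2. The share of all genes at an unadjusted p under 0.05 was not computed, so the unadjusted counts have no background beside them. Leaving out durvalumab replicate 1 raised that count to 3, and leaving out durvalumab replicate 3 in the libraries labelled A498 resistant raised theirs to 1. Calls over all genes rose as well. The first omission took them from 140 of 18886 to 1160 of 19161 and the second from 2 of 17510 to 89 of 17742.

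In 786-O parental cells FGFR4 was at 34.9, 33.8 and 33.3 CPM with atezolizumab, at 42.1, 42.5 and 46.2 CPM with avelumab and at 41.2, 39.8 and 38.2 CPM with durvalumab. Every avelumab and durvalumab library was above every atezolizumab library. The edgeR adjusted p over the 3 antibodies was 0.000278, and avelumab exceeded atezolizumab by 0.34 on the log2 scale (edgeR adjusted p = 8.98e-05). Durvalumab exceeded atezolizumab by 0.21 (edgeR adjusted p = 0.0205), which was lost without atezolizumab replicate 2 (0.0577) or 3 (0.105) or durvalumab replicate 1 (0.0557) or 2 (0.0930), and with a replicate block (0.0632), all edgeR adjusted p. EPHA4 was at 12.2, 12.1 and 10.7 CPM with atezolizumab, 14.0, 13.7 and 15.1 CPM with avelumab and 13.8, 14.9 and 14.1 CPM with durvalumab, again with atezolizumab lowest. Its edgeR adjusted p was 0.0245 over the 3 antibodies and 0.0202 for avelumab over atezolizumab (log2 0.27). The latter was lost without atezolizumab replicate 3 (edgeR adjusted p = 0.128) or avelumab replicate 3 (0.102), and with a replicate block (0.0530). Durvalumab over atezolizumab for EPHA4 was 0.27 (edgeR adjusted p = 0.0364), lost without atezolizumab replicate 2 (0.0537) or 3 (0.216) or durvalumab replicate 2 (0.193) or 3 (0.0605), with a replicate block (0.0878) and in DESeq2 (0.0674).

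NTRK3 in the same cells was at 2.08, 2.70 and 2.09 CPM with atezolizumab, 2.98, 3.32 and 3.93 CPM with avelumab and 2.79, 2.99 and 3.26 CPM with durvalumab. The edgeR adjusted p was 0.0410 over the 3 antibodies and 0.0162 for avelumab over atezolizumab (log2 0.57). The pair was lost without atezolizumab replicate 1 (edgeR adjusted p = 0.0862) or 3 (0.0735) or avelumab replicate 2 (0.0599) or 3 (0.0922). The number of receptor genes called in 786-O parental cells was 1 without atezolizumab replicate 3 or durvalumab replicate 2 and 6 without avelumab replicate 1. In that order, 305 of 17897, 316 of 17681 and 612 of 17881 genes were called over all genes.

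A498 parental cells gave FGFR3 at 4.57, 4.14 and 4.64 CPM with atezolizumab, 2.56, 2.11 and 3.21 CPM with avelumab and 3.16, 4.01 and 2.25 CPM with durvalumab. Atezolizumab libraries were the highest here, the reverse of the 786-O parental genes above, and the edgeR adjusted p over the 3 antibodies was 0.0200. Avelumab was lower than atezolizumab by a log2 of -0.79 (edgeR adjusted p = 0.0106), lost without atezolizumab replicate 1 (0.0558) or 3 (0.0642) or avelumab replicate 2 (0.0721). DDR1 was at 131, 118 and 139 CPM with atezolizumab, 120, 111 and 108 CPM with avelumab and 112, 118 and 110 CPM with durvalumab, ranges that overlap. Its edgeR adjusted p was 0.0461 over the 3 antibodies and 0.0452 for avelumab against atezolizumab (log2 -0.21), and that pair was lost in 6 of 9 fits without 1 library (edgeR adjusted p between 0.0543 and 0.188), with raw library totals (0.0811) and with a replicate block (0.0602). The number of receptor genes called in A498 parental cells was 0 without atezolizumab replicate 1 or 3, avelumab replicate 2 or durvalumab replicate 1, and 4 without atezolizumab replicate 2. In that order, 395 of 18787, 233 of 18647, 358 of 18640, 359 of 18657 and 589 of 18843 were called over all genes.

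**Figure D5:**
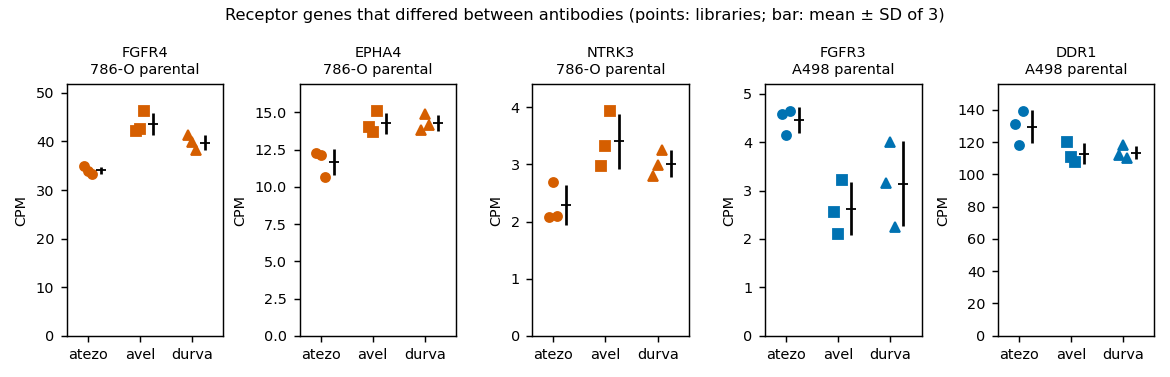
CPM of the 5 genes that differed between antibodies in a cell state, each of 3 libraries as a point and the mean ± SD of 3 beside them, with y axes from 0. Atezolizumab libraries are lowest for FGFR4, EPHA4 and NTRK3 in 786-O parental cells and highest on average for FGFR3 and DDR1 in A498 parental cells.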

How the data were processed

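Poly(A) RNA libraries (36, 3 for each of 12 groups) were analysed from the deposited table of raw gene counts. Per the submitters' processing notes, the authors used bcl2fastq 2.19.0, Trimmomatic 0.36.6, HISAT2 2.1.0, featureCounts 1.6.3 and GRCh38. Annotation release and strand setting: not given in the sources used here. The deposited counts were tested with edgeR 4.0.16 (R 4.3.3, limma 3.58.1): filterByExpr by group (count minimum 10, total 15), TMM scaling, a mean per group, robust quasi-likelihood tests and Benjamini-Hochberg adjustment over all genes tested, at 0.05. State differences average the 3 antibodies. SE is the log2 change divided by the root of F. CPM used raw totals, and CPM per kb used exonic length of GENCODE 29. Alternatives were DESeq2 1.42.0, other scalings and filters, a replicate block and leaving out each library. The edgeR step was tested on simulated data. Genes described in full were called, changed by at least 1 on the log2 scale with at least 5 CPM in a compared state, or differed between antibodies. From the other lists, fixed numbers of the largest changes were named, with further ligands of the described receptors added after their values were seen. The 48 genes and all lists were chosen with earlier results of these data known.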

Additional observations from a re-analysis of the deposited data

Results flagged for a closer look

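For 2 genes, 1 library of a cell state stood apart from the other 8 by a gap too wide for the range of the 9. IGF1R reached 38.7 CPM in durvalumab replicate 3 of 786-O parental cells, where the nearest library held 33.2 CPM. EPHA7 reached 0.0608 CPM in the same library, with 0.0301 CPM in the nearest, but it had only 7 counts over the 9 libraries. About 1 in 20 such sets is picked out by chance, and 80 were examined. That rate need not hold for a gene with as few counts as EPHA7.

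For 18 of the 20 genes described in full, the edgeR interaction test separated the change in 786-O from that in A498 as labelled. Of all genes tested, 80.4% were called in the same test. Most of the 20 had been picked for a large change in a pair that enters it, so the count sets these receptors apart in no way. The values below are the log2 change in 786-O minus that in A498 as labelled, and all rest on the libraries labelled A498 resistant. The growth factor receptors EGFR (0.64), FGFR1 (1.13), FGFR4 (0.98) and MST1R (8.23) had the higher value in 786-O. So did DDR1 (2.76), STYK1 (1.31) and the ephrin receptors EPHA1 (0.80), EPHB2 (1.56), EPHB4 (7.63) and EPHB6 (6.51). Lower values in 786-O were found for ERBB2 (-0.15), AXL (-1.14), IGF1R (-0.68) and FGFR3 (-0.45). The same held for NTRK3 (-8.02), ROR2 (-6.69), EPHA4 (-2.03) and EPHB1 (-0.76). The ERBB2 interaction was not called without the filter on low counts (log2 -0.08, edgeR adjusted p = 0.0625).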

How the results depend on the processing

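The receptor counts of 24 higher and 10 lower in 786-O were unchanged in every fit without 1 library, and ranged over the other settings from 18 to 30 and from 8 to 10. A filter of at least 10 counts in every library, which tests fewer genes, left 11 lower within A498 as labelled (18 as reported), 15 higher in A498 than 786-O parental cells (25) and 14 with the higher interaction (24). The antibody counts were the least stable. In A498 parental cells (2 as reported) 1 gene was called with raw library totals, and 0 to 4 without 1 library. In 786-O parental cells (3) the count was 6 with no filter, and 1 to 6 without 1 library. In 786-O resistant cells (0) it was 3 with no filter, 1 with DESeq2 and 0 to 3 without 1 library, and in the libraries labelled A498 resistant (0) it was 0 to 1. With no filter, calls over all genes were 1400 of 32707 in 786-O parental and 692 of 36511 in 786-O resistant cells. DESeq2 called 257 of 18886 in 786-O resistant cells. The FGFR2 interaction, never called, changed sign to 0.00902 with median-ratio scaling and with DESeq2, 0.0238 with no filter and 0.0300 with the strict filter. ROR1 within A498 as labelled, also not called, was -0.00803 under the strict filter and was called higher with raw library totals (0.10). The cause was not tested. Between the sets labelled resistant, the small ERBB2 and FGFR1 differences lost their calls in 13 and 9 alternatives.

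Replicate numbers did not clearly pair the libraries: in 786-O same-numbered libraries correlated at -0.10 to 0.09 in their deviations, and 7 of 18 libraries were nearest their own number. Inside single states the highest such correlation was 0.186, in the libraries labelled A498 resistant. Libraries nearest their own number were 5 of 9 in 786-O resistant, 1 of 9 in 786-O parental and 3 of 9 in A498 parental cells. In the libraries labelled A498 resistant 2 of 9 were. A replicate block left 0 antibody calls among the receptor genes in A498 parental cells and 1 in 786-O parental cells. Over all genes the block lowered the calls from 704 to 499 and from 618 to 300 in those cells. It raised them from 140 to 347 in 786-O resistant cells. Depth limits the genes under 1 CPM. In simulated 786-O parental libraries, 44.0% of 1.2-fold antibody differences were called.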

Other observations

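The 9 receptors that sunitinib is known to block were themselves little expressed, and only 2 were tested in 786-O. CSF1R, the receptor of macrophage colony-stimulating factor, averaged 1.59 CPM in parental and 0.255 CPM in resistant 786-O, 6.90-fold lower after selection (log2 -2.79, SE 0.163, edgeR adjusted p = 1.46e-16). PDGFRB averaged 0.257 and 0.618 CPM, 2.17-fold higher. In the libraries labelled A498 resistant PDGFRB averaged 6.11 CPM against 0.302 CPM in A498 parental cells, 18.8-fold higher. The 9 together summed to 1.18 CPM in A498 parental cells, 2.04 CPM in 786-O parental cells, 1.27 CPM in 786-O resistant cells. Their sum was highest, 6.54 CPM, in the set labelled A498 resistant. The 48 receptors outside that set summed to at least 2553 CPM in each state by mean.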
